A study of Nothobranchius furzeri with 15 samples.

Results

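The 93 genes described here had a higher level in the skin of every rotenone sample, at 15 pM and at 150 pM, than in any solvent sample. They were chosen by measured values, from 26739 genes in the deposited count table. Levels were expressed as CPM, a gene's count relative to the library total after scaling the libraries with TMM factors (edgeR's correction for differences in library composition). A gene was taken where its mean over the 15 samples was at least 1 CPM, it was not among the 100 most abundant genes of the DMSO group, and its lowest CPM among the 10 rotenone samples exceeded its highest CPM among the 5 DMSO samples. Of 16402 genes that met the abundance floor and the exclusion, 93 met the last condition, which is 0.567%. The mirror condition, with all 10 rotenone samples below all 5 DMSO samples, was met by 142 genes, or 0.866%.

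The samples were skin of male turquoise killifish (Nothobranchius furzeri) of the inbred GRZ strain at 9 weeks of age. The groups were DMSO, the solvent (dimethyl sulfoxide), rotenone at 15 pM and rotenone at 150 pM, with 5 samples each. The labels give neither the length of exposure nor the number of fish per sample, and the p-values below speak only for the variation among the samples at hand, part of which may be technical. In bulk skin, more cells of a type and more RNA per cell cannot be told apart.

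Rotenone is a plant compound that blocks complex I of the mitochondrial respiratory chain, the enzyme that passes electrons from NADH to ubiquinone. Inhibition of complex I lowers the proton gradient used for ATP synthesis and can raise the leak of electrons to oxygen. The turquoise killifish is a short-lived annual fish used to study ageing, and its skin holds epidermal keratinocytes, mucous cells, pigment cells, scales and dermal connective tissue. The deposited tables carry numbered identifiers (Nfu_g_1 followed by 6 digits). None of them matched the RefSeq gene table used here (0 of 26739), so the genes are given by identifier, with no name, role or position, and the skin label was not checked against marker genes.

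Total counts ran from 21857670 to 28314659 per sample. The 20 most abundant genes of each sample took 15.9% of the counts in 15 pM replicate 4 and 18.1% in 15 pM replicate 1, against 27.9% to 32.8% in the other 15 pM samples, 25% to 32.0% at 150 pM and 24.8% to 33.4% in DMSO. Those 15 pM samples stand apart in composition, and several values below are also given without them.

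Because the rule used every contrast of rotenone with DMSO, the values against DMSO are a description of the choice and carry no test. The fitted fold change over DMSO had a median of 1.5 at 15 pM (range 1.16 to 4.13) and of 1.34 at 150 pM (range 1.1 to 2.72). Without 15 pM replicates 1 and 4 the medians were 1.38 at 15 pM and 1.33 at 150 pM. On the log2 scale the medians with all samples were 0.58 at 15 pM and 0.42 at 150 pM. Both comparisons share the 5 DMSO samples. More than a 2-fold difference was found for 19 genes at 15 pM and for 5 genes at 150 pM, and 44 of the 93 stayed under 1.5-fold at both doses. The 142 genes of the mirror condition had median log2 fold changes of -0.57 at 15 pM and -0.52 at 150 pM.

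In the edgeR quasi-likelihood fit over 18253 genes, which included all 93, 40 of the 93 passed a Benjamini-Hochberg adjusted p of 0.05 as raised at 15 pM, where 1.07% of all tested genes did. At 150 pM 4 of the 93 passed, where 0.0603% of all tested genes did. The rule used these contrasts, so nothing is read from either share. Nfu_g_1_019963 and Nfu_g_1_017453 passed at both doses, and Nfu_g_1_015800 and Nfu_g_1_015919 were the others that passed at 150 pM. Without 15 pM replicate 4 the counts were 61 at 15 pM, where 2.80% of all tested genes were called raised, and 40 at 150 pM, where 0.959% were. The non-overlap at a single dose is a part of the rule, so at least as many genes must meet it. All 5 samples at 15 pM were above all 5 DMSO samples for 3.67% of the 16402 genes. All 5 samples at 150 pM were above them for 3.33%.

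**Figure D1:**
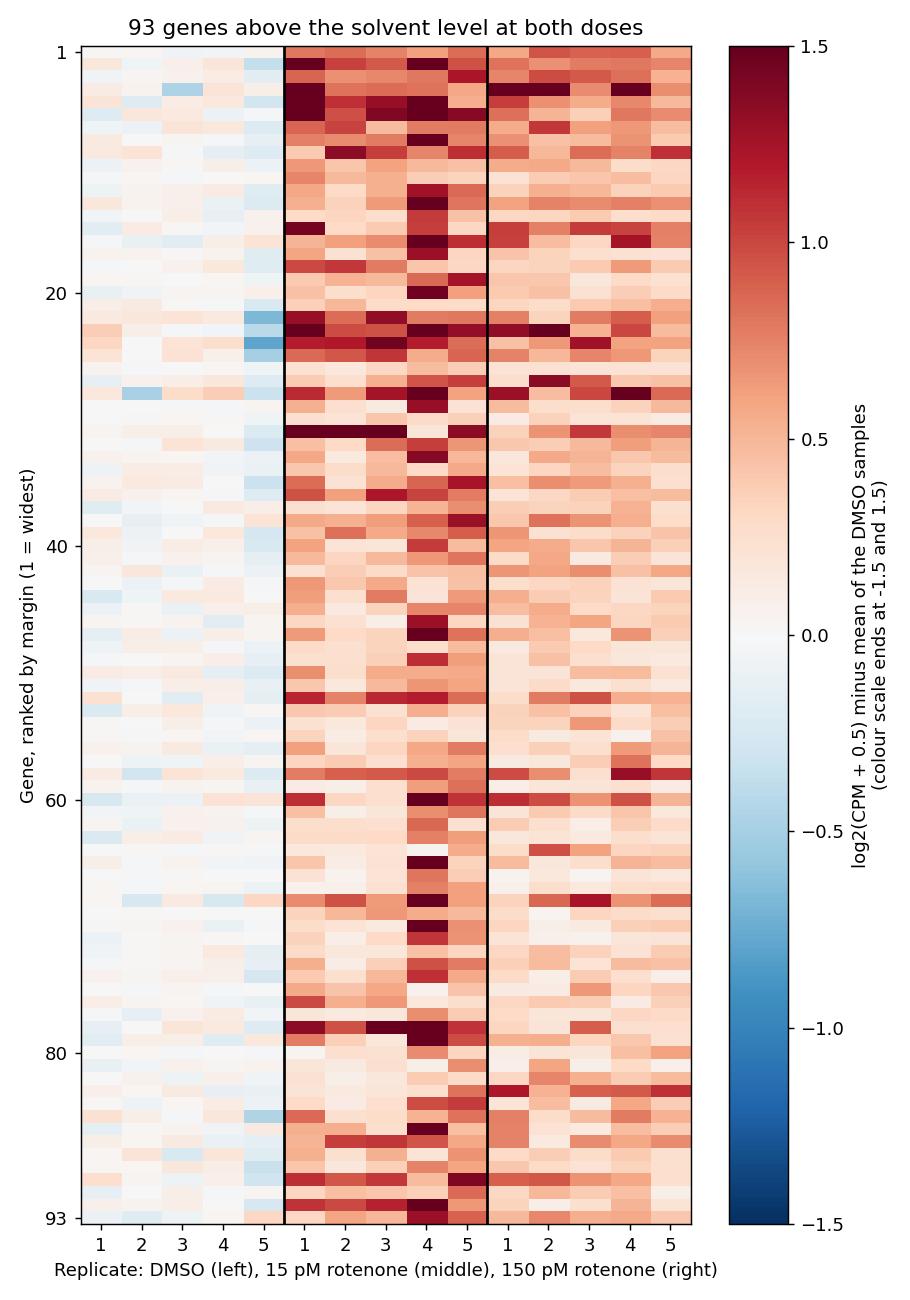
Level of each of the 93 genes (rows, ranked by margin, widest on top) in each of the 15 samples (columns: DMSO, 15 pM, 150 pM), as log2(CPM + 0.5) minus the mean of the DMSO samples. Every rotenone cell is above the DMSO cells of its row, as the rule requires, and 15 pM replicate 4 holds the highest value of 42 genes. Colours end at 1.5 in either direction.

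The gap between the groups was narrow for most of the 93. The margin, the lowest rotenone CPM divided by the highest DMSO CPM, had a median of 1.04 and quartiles of 1.02 and 1.1. It exceeded 1.1-fold for 22 genes and 1.2-fold for 8. Membership therefore moved with the scaling. CPM from library totals without TMM factors gave 33 genes, 28 of them among the 93, and the deposited RPKM gave 15, with 13 among the 93. Under 5 other scalings (DESeq2 size factors, upper-quartile factors, library totals, deposited RPKM and TMM factors from the tested genes), 12 of the 93 met the rule every time and 3 never did. The deposited RPKM did not follow from each sample's own total, as described below. Under the 4 other scalings 27 of the 93 met the rule every time, among them all 8 genes with the widest margins.

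The widest margin belonged to Nfu_g_1_019963. It had 30.7, 31.0, 29.1, 29.5 and 31.5 CPM in DMSO, 53.0, 54.5, 51.0, 46.6 and 54.7 CPM at 15 pM, and 45.8, 59, 56.4, 56.9 and 45.2 CPM at 150 pM. The lowest rotenone sample, 150 pM replicate 5, stood 1.43-fold above the highest DMSO sample, and the 2 doses overlapped each other. Its log2 fold change over DMSO was 0.77 at 15 pM (SE 0.10) and 0.81 at 150 pM (SE 0.10). Between the doses the log2 difference was 0.04 (SE 0.10).

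Nfu_g_1_001829 had 39, 32.9, 36.5, 39 and 26.8 CPM in DMSO, 101, 70.7, 65.6, 158 and 67.1 CPM at 15 pM, and 61.2, 55.6, 59.8, 60.2 and 57.6 CPM at 150 pM. The 3 groups did not overlap, with 150 pM between DMSO and 15 pM, and 15 pM replicates 4 and 1 were the highest of all. Over DMSO the log2 fold change was 1.4 at 15 pM (SE 0.22) and 0.77 at 150 pM (SE 0.22). The difference between the doses was -0.63 with all samples and -0.18 without 15 pM replicates 1 and 4.

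Nfu_g_1_017453 had 25.9, 27.7, 28.1, 29.1 and 24.2 CPM in DMSO, 49.6, 43.7, 44.7, 47.1 and 63.8 CPM at 15 pM, and 45.2, 53.4, 51.4, 48.3 and 38.7 CPM at 150 pM. Both doses covered much the same range, and 15 pM replicate 5 was the highest. Its means were 27.0 ± 1.95 CPM in DMSO, 49.8 ± 8.16 CPM at 15 pM and 47.4 ± 5.74 CPM at 150 pM (SD, n = 5 each).

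Nfu_g_1_015733 had the largest fold change at 150 pM of the 93 in the fit of all samples. It had 13.5, 12.8, 8.83, 14.2 and 13.1 CPM in DMSO, 55.1, 22.0, 22.5, 22.0 and 18.7 CPM at 15 pM, and 37.4, 53.5, 20.5, 36.1 and 20.3 CPM at 150 pM. One sample, replicate 1, lay far above the other 15 pM samples, and the 150 pM samples fell into a low pair, a middle pair and a high one. On the log2 scale the fold change was 1.16 at 15 pM and 1.44 at 150 pM, each with an SE of 0.32. Without 15 pM replicate 1 it was 0.76 at 15 pM (SE 0.25). When each 150 pM sample was left out, it ran at 150 pM from 1.21 (without replicate 2) to 1.58 (without replicate 5). In the fit of all samples the log2 fold change of Nfu_g_1_007247 at 150 pM was 1.27.

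Nfu_g_1_018921 had 16.5, 12.54, 15.7, 16.2 and 11.9 CPM in DMSO, 55.4, 31.3, 36.6, 62.3 and 21.3 CPM at 15 pM, and 30.1, 23.5, 21.5, 24.2 and 20.5 CPM at 150 pM. At 15 pM it spread widely, with replicates 4 and 1 highest and replicate 5 within the 150 pM range. Its log2 fold change over DMSO was 1.49 at 15 pM (SE 0.24) and 0.73 at 150 pM (SE 0.24). The difference between the doses was -0.76 with all samples and -0.29 without 15 pM replicates 1 and 4.

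Nfu_g_1_019030 was low in CPM and short, at 0.609, 0.920, 0.902, 0.694 and 0.740 CPM in DMSO, 3.11, 1.97, 2.82, 3.46 and 2.77 CPM at 15 pM, and 1.75, 1.31, 1.13, 1.70 and 1.56 CPM at 150 pM. The 3 groups did not overlap. The counts behind these levels were small, from 17 to 23 in the DMSO samples, and the gene length that follows from the deposited count and RPKM tables was 171 bases, the shortest of the 93.

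Nfu_g_1_010338 and Nfu_g_1_012769 completed the 8 widest margins. Nfu_g_1_010338 averaged 4.31 ± 0.571 CPM in DMSO, 7.76 ± 1.09 CPM at 15 pM and 7.17 ± 1.31 CPM at 150 pM (SD, n = 5 each). Nfu_g_1_012769 had 50.1, 45.5, 46.9, 44.6 and 41.8 CPM in DMSO, 77.3, 75, 78.8, 146 and 76.3 CPM at 15 pM, and 73.8, 62.3, 63.8, 73.1 and 60.2 CPM at 150 pM. For the second gene every 150 pM sample lay below every 15 pM sample, and 15 pM replicate 4 stood far above the rest.

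**Figure D2:**
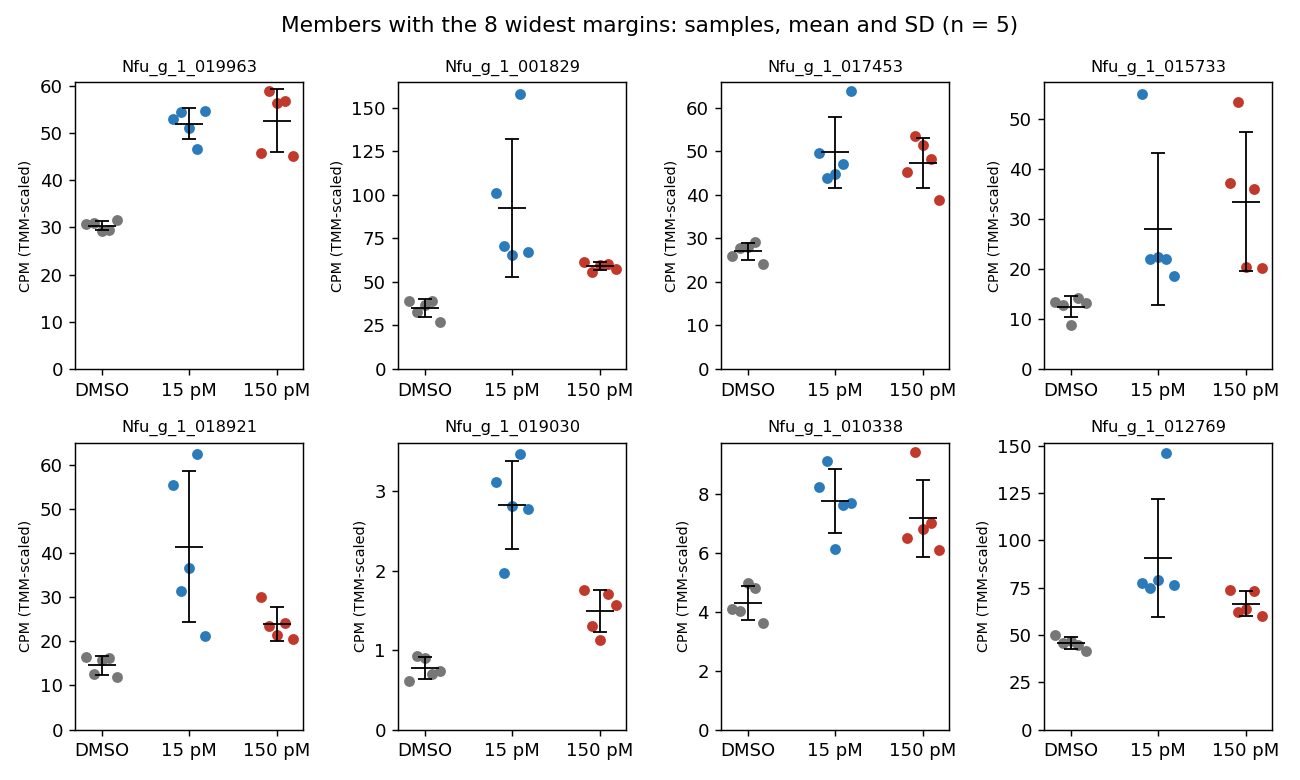
CPM of the 8 genes with the widest margins in the DMSO, 15 pM and 150 pM samples (points, 5 per group), with the mean and SD as bars. In each panel the lowest rotenone point is above the highest DMSO point, by 1.2-fold to 1.43-fold, and single 15 pM samples lie far above their group in several panels.

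At the edge of the rule the separation was very small. Just inside were Nfu_g_1_015582, Nfu_g_1_016142 and Nfu_g_1_006499. For Nfu_g_1_015582 the lowest rotenone sample, 150 pM replicate 5, had 15.55 CPM, against 15.53 CPM in the highest DMSO sample, DMSO replicate 3. Nfu_g_1_006499 ran from 8.36 to 11.9 CPM in DMSO, from 11.9 to 24.1 CPM at 15 pM and from 12.9 to 16.1 CPM at 150 pM. Just outside were Nfu_g_1_017127, Nfu_g_1_008581 and Nfu_g_1_018073. Nfu_g_1_008581 missed the rule with 17.11 CPM in its lowest rotenone sample, against 17.12 CPM in its highest DMSO sample, although its fitted fold change was 2.31 at 15 pM and 1.81 at 150 pM. Nfu_g_1_017127 missed it with 2.64997 CPM in its lowest rotenone sample, against 2.65073 CPM in DMSO, and Nfu_g_1_018073 with 7.223 CPM, against 7.234 CPM.

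The most abundant of the 93 by mean CPM were Nfu_g_1_021066, Nfu_g_1_015310, Nfu_g_1_004105, Nfu_g_1_006549 and Nfu_g_1_017420. Nfu_g_1_021066 had 343, 360.2, 325, 361 and 330.3 CPM in DMSO, 402, 364, 387, 449 and 420.3 CPM at 15 pM, and 428, 572, 497, 449 and 479 CPM at 150 pM. The doses overlapped, since 15 pM replicate 4 lay above 150 pM replicates 1 and 4, and the group means were 344 CPM in DMSO, 405 CPM at 15 pM and 485 CPM at 150 pM. Nfu_g_1_015310 had 278, 283, 277, 283 and 276 CPM in DMSO, 313, 309, 323, 289 and 412 CPM at 15 pM, and 339, 544, 426, 348 and 354 CPM at 150 pM. Its DMSO samples were nearly equal, and 15 pM replicate 5 and 150 pM replicate 2 were high within their groups.

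The other 3 abundant genes had higher means at 15 pM than at 150 pM. Nfu_g_1_004105 averaged 172 ± 21.6 CPM in DMSO, 237 ± 36.6 CPM at 15 pM and 211 ± 11 CPM at 150 pM (SD, n = 5 each). Nfu_g_1_006549 averaged 168 ± 18.7 CPM in DMSO, 243 ± 26.1 CPM at 15 pM and 208 ± 21.8 CPM at 150 pM (SD, n = 5 each). Nfu_g_1_017420 ran from 124 to 156 CPM in DMSO, from 175 to 243 CPM at 15 pM and from 159.7 to 173 CPM at 150 pM, so that its 3 groups did not overlap.

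Compared per length, as RPKM computed with each sample's own total count multiplied by its TMM factor, Nfu_g_1_021066 led the 93 with a mean level of 123.5 RPKM over all samples, followed by Nfu_g_1_017420 with 99.9 RPKM, Nfu_g_1_015310 with 86.0 RPKM, Nfu_g_1_004105 with 84.4 RPKM and Nfu_g_1_019676 with 63.5 RPKM. The 93 had a median mean level of 9.92 RPKM, which was that of the short Nfu_g_1_019030, and a range of 0.723 to 123.5 RPKM. Their mean CPM had a median of 27.9 (range 1.58 to 411), against 13.2 for the 16402 genes that met the floor and the exclusion. By mean CPM, 9 genes were under 5, 60 were between 5 and 50 and 24 were at 50 or more. Gene length had a median of 2715 bases in the 93 (quartiles 1557 and 4389) and of 2838 bases in the 16402 (quartiles 1434 and 4859).

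Replicates of the 93 were closer together than those of the 16402 genes, which a rule on non-overlap favours. The 93 were also more abundant (median mean CPM 27.9, against 13.2), and the part of abundance in the spread was not tested. The SD of log2 CPM had a median of 0.110 among the DMSO samples, against 0.191 for the 16402 genes. At 15 pM it was 0.287, against 0.399, and at 150 pM 0.140, against 0.226. The 15 pM samples were thus the most variable group for both sets.

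The 2 doses were then compared directly. The rule bounds both doses from below and neither from above, so a dose with a wider spread can keep a higher mean among the chosen genes. The order of the doses over the 93 is therefore a description. Mean CPM was lower at 150 pM than at 15 pM for 80 of the 93 (86.0%), where 57.4% of the 16402 genes were lower, and higher for 13. Without 15 pM replicate 4, 66 were lower and 27 higher, where 54.0% of the 16402 genes were lower. Without 15 pM replicates 1 and 4 the split was 67 lower and 26 higher, where 53.6% of the genes were lower. The median log2 difference of 150 pM minus 15 pM in the edgeR fit was -0.17 for the 93 (range -1.06 to 0.71) and -0.03 for all 18253 tested genes. For 36 of the 93 the difference was smaller than its own SE.

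In the edgeR quasi-likelihood test of 150 pM against 15 pM, 4 of the 93 (4.30%) were lower at 150 pM at an adjusted p under 0.05, where 0.898% of all tested genes were lower. None of the 93 was called higher (0, where 0.800% of all tested genes were). At an unadjusted p under 0.05, 17 (18.3%) were lower, where 11.7% of all tested genes were, and 4 (4.30%) were higher, where 11% were. DESeq2 called 7 lower, where 4.79% of all tested genes were, and 3 higher, where 4.48% were. With limma-voom and sample quality weights 10 were lower, where 4% of all tested genes were, and 3 higher, where 3.74% were. Both tools called the same 3 higher genes, Nfu_g_1_015800, Nfu_g_1_015919 and Nfu_g_1_021066. The rule favours genes with close replicates and can let the wider 15 pM group keep higher means. How far it did so here was not tested. The p-values between doses take no account of how the 93 were chosen, so the shares among the 93 are a description as well.

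The gene with the largest drop was Nfu_g_1_020691. It had 6.77, 7.36, 8.43, 8.28 and 6.40 CPM in DMSO, 19.5, 14.9, 23.0, 32.1 and 16.2 CPM at 15 pM, and 9.36, 8.52, 14.3, 8.86 and 8.95 CPM at 150 pM. The highest 150 pM sample, replicate 3, stayed just below the lowest 15 pM sample, and the other 4 lay close above DMSO. Its log2 difference, 150 pM minus 15 pM, was -1.06 (SE 0.21, edgeR adjusted p = 0.0303).

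Nfu_g_1_013517, the longest of the 93 at 12283 bases, had 22.9, 21.9, 21.3, 20.6 and 18.2 CPM in DMSO, 41.1, 32.2, 49.2, 42.9 and 36.1 CPM at 15 pM, and 24.2, 26.1, 27.3, 28.7 and 29.3 CPM at 150 pM. Its 3 groups did not overlap, with 150 pM nearer to DMSO. On the log2 scale 150 pM minus 15 pM was -0.55 (SE 0.11, edgeR adjusted p = 0.0307).

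Nfu_g_1_016142 had 37.8, 37.2, 38.5, 36.1 and 30.3 CPM in DMSO, 76.6, 71.4, 80.4, 138 and 56.7 CPM at 15 pM, and 45.1, 38.5, 42.4, 51.0 and 41.5 CPM at 150 pM. Every 15 pM sample lay above every 150 pM sample, while 150 pM replicate 2 barely cleared DMSO replicate 3. The difference, 150 pM minus 15 pM, was -0.93 on the log2 scale (SE 0.19, edgeR adjusted p = 0.0320). For Nfu_g_1_019030, whose samples are given above, it was -0.90 (SE 0.20, edgeR adjusted p = 0.0409).

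Over 22 alternatives the adjusted p ranged from 0.000268 to 0.0952 for Nfu_g_1_020691, from 0.000605 to 0.0938 for Nfu_g_1_013517, from 0.000510 to 0.102 for Nfu_g_1_016142 and from 0.00263 to 0.109 for Nfu_g_1_019030. It stayed under 0.05 in 17 of them for Nfu_g_1_020691, in 16 for Nfu_g_1_013517 and for Nfu_g_1_016142, and in 8 for Nfu_g_1_019030. Nfu_g_1_019030 also lost its call with no filter on low counts and without any 1 of DMSO replicates 2, 4 and 5, 15 pM replicates 1 and 5 and 150 pM replicate 4 (adjusted p 0.0510 to 0.0584). All 4 calls were lost in edgeR when only the 2 doses were fitted. They were also lost when 15 pM replicate 3 or 150 pM replicate 1, 2 or 5 was left out. In these fits 15 to 25 of the 93 had an unadjusted p under 0.05, in either direction. The share of all tested genes is not given for these fits. In the main fit 11.7% of all tested genes were lower at that threshold and 11% higher, so nothing is read from these counts. Without 150 pM replicate 3 Nfu_g_1_020691 alone kept its call. Without 15 pM replicates 1 and 4 together, 4 of the 93 were called lower, where 2.98% of all tested genes were, and 1 higher, where 2.37% were. Nfu_g_1_019030 was not among them (edgeR adjusted p = 0.0679). The direction was the same in every alternative run for these 4 genes.

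**Figure D3:**
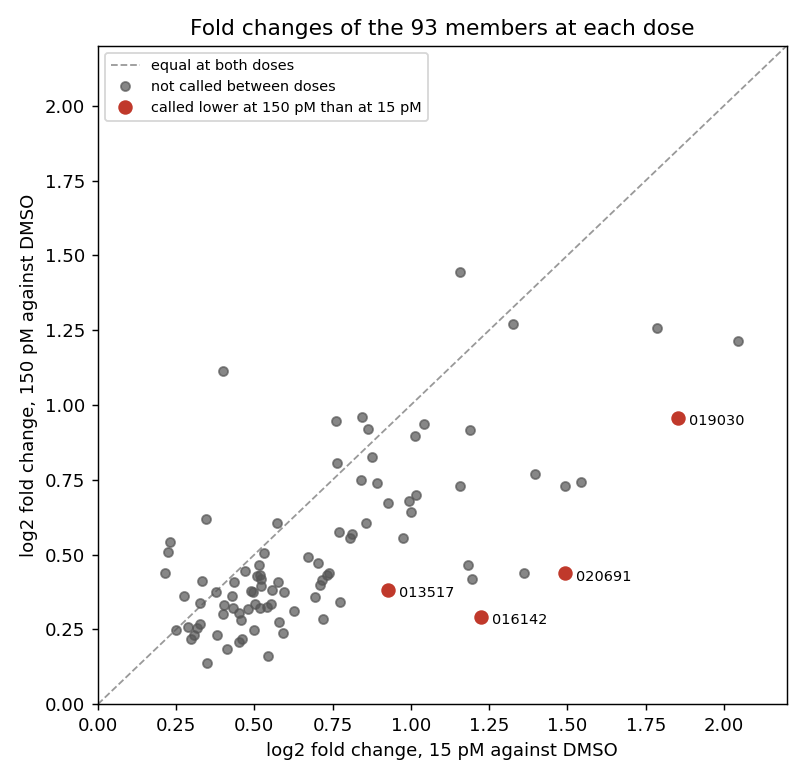
Log2 fold change over DMSO at 150 pM (vertical axis) and at 15 pM (horizontal axis) for the 93 genes, with the line of equal values. The 4 genes called lower at 150 pM than at 15 pM are in red and lie below the line, and both axes share the DMSO samples.

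As a count of non-overlap, with no test, 8 of the 93 (8.60%) had every 150 pM sample below every 15 pM sample, where 3.20% of the 16402 genes did. These were the 4 called genes with Nfu_g_1_001829, Nfu_g_1_012769, Nfu_g_1_017420 and Nfu_g_1_005694, the last named after its values were seen. In none of the 93 did every 150 pM sample lie above every 15 pM sample (0, where 2.49% of the 16402 genes did). Nfu_g_1_015919, also chosen after its values were seen, had the largest log2 difference in the opposite direction. It had 2.22, 2.13, 2.35, 1.88 and 1.90 CPM in DMSO, 2.46, 2.37, 2.45, 2.59 and 4.06 CPM at 15 pM, and 5.52, 3.23, 4.34, 4.39 and 5.04 CPM at 150 pM. Only 15 pM replicate 5 reached into the 150 pM range. Its log2 difference, 150 pM minus 15 pM, was 0.71 (SE 0.19, edgeR adjusted p = 0.0645), and without 15 pM replicate 5 it was 0.90 with an edgeR adjusted p of 0.0249.

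The 4 genes whose doses differed least were Nfu_g_1_016866, Nfu_g_1_021815, Nfu_g_1_019676 and Nfu_g_1_002999. Nfu_g_1_016866 averaged 19.9 ± 2.02 CPM in DMSO, 26.0 ± 2.10 CPM at 15 pM and 25.6 ± 1.72 CPM at 150 pM (SD, n = 5 each). Nfu_g_1_021815 averaged 10.6 ± 0.240 CPM in DMSO, 12.7 ± 0.926 CPM at 15 pM and 12.47 ± 1.29 CPM at 150 pM (SD, n = 5 each). The log2 fold change between the doses had an SE of 0.10 for both, and the 2 doses overlapped in both. Nfu_g_1_019676 ran from 25.4 to 26.6 CPM in DMSO, from 26.8 to 42.9 CPM at 15 pM and from 28.1 to 39.8 CPM at 150 pM. Nfu_g_1_002999 ran from 3.83 to 4.90 CPM in DMSO, from 5.17 to 7.48 CPM at 15 pM and from 5.30 to 6.57 CPM at 150 pM.

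Sample by sample, the median of the 93 genes, as log2(CPM + 0.5) minus the mean of the DMSO samples, lay between -0.09 and 0.05 in DMSO. At 15 pM it was 0.53, 0.30, 0.47, 0.77 and 0.64, and at 150 pM it was 0.34, 0.43, 0.38, 0.45 and 0.38. The 150 pM samples were close to each other, whereas 15 pM replicate 2 was the lowest of the 10 rotenone samples and replicate 4 the highest. Over the 16402 genes the same median stayed between -0.04 and 0.01 in every sample.

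**Figure D4:**
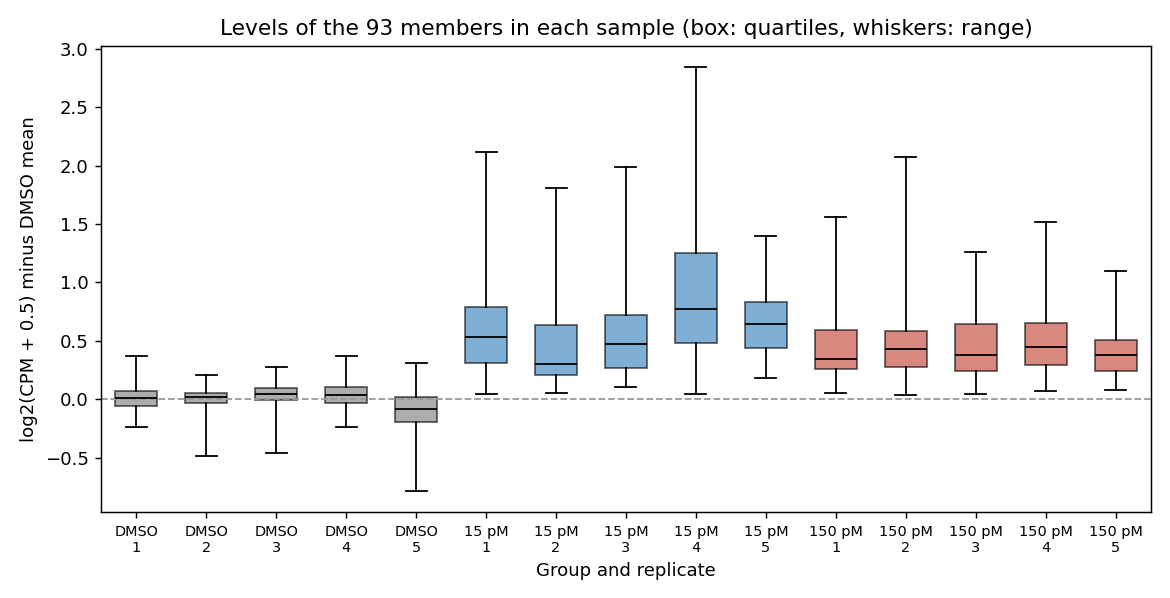
Level of the 93 genes in each sample (groups: DMSO, 15 pM, 150 pM) as log2(CPM + 0.5) minus the mean of the DMSO samples, with the median as line, the quartiles as box and the range as whiskers. The 150 pM medians lie between 0.34 and 0.45, and the 15 pM medians spread from 0.30 to 0.77.

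One sample held many of the highest values. 15 pM replicate 4 was the highest of all 15 samples for 42 of the 93 (45.2%). It was the highest for 24.8% of the 16402 genes, among which a DMSO sample can be highest, as the rule does not allow for the 93. It also held the lowest rotenone value for 24.3% of the 16402 genes, the largest share of any rotenone sample. This sample was thus often extreme in either direction. The rule leaves out genes in which a rotenone sample is not above DMSO, and among the 93 it held the lowest rotenone value for 5. A 15 pM sample was highest for 79 genes and a 150 pM sample for 14. Over the 16402 genes 15 pM replicates 1 to 5 were highest for 3.09%, 7.22%, 5.12%, 24.8% and 14.1%. For 150 pM replicates 1 to 5 the shares were 2.65%, 5.57%, 8.26%, 1.70% and 3.98%. For the 42, the median over DMSO was 1.28 on the log2 scale in 15 pM replicate 4, 0.45 in the other 15 pM samples and 0.38 at 150 pM. For the other 51 genes it was 0.53 in that sample, 0.53 in the other 15 pM samples and 0.40 at 150 pM. The split into 42 and 51 genes was made from these same values. The higher level of the 42 in 15 pM replicate 4 therefore follows from the split. This sample also had the lowest share of counts in its 20 most abundant genes, and its part in these values was not tested.

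The sample that set the edge of the rule also varied. The lowest rotenone value fell in a 15 pM sample for 40 genes and in a 150 pM sample for 53, most often in 15 pM replicate 2 (22 genes) and 150 pM replicate 5 (15 genes). Over the 16402 genes, 15 pM replicates 1 to 5 held the lowest rotenone value for 3.99%, 9.95%, 4.39%, 24.3% and 19.7%. For 150 pM replicates 1 to 5 these shares were 8.16%, 7.05%, 14.2%, 2.73% and 5.54%. Among the 16402 genes the lowest rotenone value can lie below DMSO, as the rule does not allow for the 93. Of the 93, DMSO replicate 3 held the highest solvent value for 32 genes and DMSO replicate 4 for 23. Over the 16402 genes DMSO replicates 1 to 5 held it for 17.8%, 18.9%, 20.7%, 17.9% and 24.7%. The rule gave 171 genes without 15 pM replicate 2 and 151 without DMSO replicate 3. Leaving out a sample both relaxes the condition and changes the scaling, and without 150 pM replicate 4 the rule gave 76 genes. Without 15 pM replicates 1 and 4 together it gave 130, 76 of them among the 93.

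**Figure D5:**
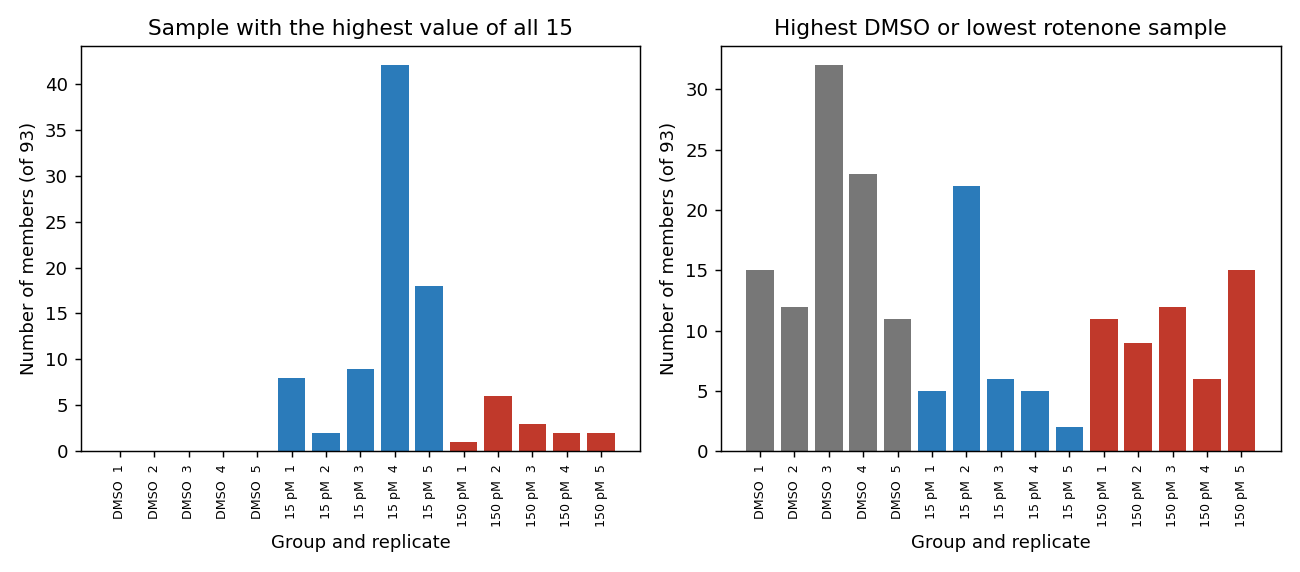
Number of the 93 genes (vertical axes) whose highest value of all 15 samples fell in each sample (left), and for which each sample held the highest DMSO or the lowest rotenone value (right). 15 pM replicate 4 holds the highest value for 42 genes, DMSO replicate 3 the highest solvent value for 32 and 15 pM replicate 2 the lowest rotenone value for 22.

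Within groups the levels of the 93 genes were modestly correlated. After the group means were removed, the correlation of log2 levels over the 15 samples had a median of 0.19 over the 4278 pairs of the 93 (quartiles -0.12 and 0.49). Over all 134504601 pairs of the 16402 genes the median was -0.004 (quartiles -0.306 and 0.306). A correlation over 0.5 was found for 24.1% of pairs among the 93 and for 12.9% of all pairs. Without 15 pM replicates 1 and 4 the median among the 93 was 0.14, with 19.1% of pairs over 0.5. The share over all pairs was not computed for those 13 samples, so 19.1% has no background value beside it. The rule leaves out genes in which a rotenone sample is low, for the 93 but not for the 16402. That choice can by itself shape the correlations among the 93. These pairs also share samples, libraries and scaling factors, and genes are not independent replicates, so the correlations are a description.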

How the data were processed

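Skin RNA of 15 samples was sequenced. Per the labels' protocols the library kit was Illumina TruSeq RNA v2, which does not mark strand, so overlapping and antisense genes cannot be told apart. CASAVA 1.8.2, STAR 2.4.1d and featureCounts 1.4.6-p4 are named per the submitters' processing notes. Not given in the sources used here are the genome build, the annotation and the handling of reads shared by near-identical genes. As data, the authors deposited raw counts per gene and RPKM values. In 3936 well-covered genes the deposited RPKM followed from the counts with 1 gene length only when the 15 library totals were repeated down the rows of the table (100% of the genes), and never with each sample's own total (0%). The deposited RPKM were therefore used for gene lengths and for 1 alternative only.

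The 93 genes, the rules for naming genes and the alternatives were chosen with earlier results of these data known. The genes named are the 8 with the widest margin, the 5 with the highest mean CPM, those called between doses, the 4 with the smallest difference between doses, and the 3 just inside and the 3 just outside the rule. Gene lists and marker lists need names and were not used. Replicates are numbered 1 to 5 in accession order.

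The test on counts was run with edgeR 4.0.16 in R 4.3.3 (filterByExpr, minimum count 10, minimum total 15, TMM factors, glmQLFit and glmQLFTest, 1 fit with a mean per group over all 15 samples). P-values were adjusted by Benjamini-Hochberg over 18253 genes, with a threshold of 0.05. The fold changes are fitted values with a prior count of 0.125. Per-sample levels on the log2 scale used a pseudocount of 0.5 CPM. The steps were tested on simulated data. Alternatives were other scalings and floors, no filter on low counts, fits of the 2 groups compared, DESeq2 1.42.0, limma 3.58.1 with voom, a replicate block, and leaving out each sample. TMM factors from the tested genes, and leaving out 15 pM replicates 1 and 4 together, were added after seeing the data. Of 105 pairs of samples, none had counts within sampling noise of each other (the smallest chi-square per gene was 25.6).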

Additional observations from a re-analysis of the deposited data

Results flagged for a closer look

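Among the 22 genes named by the rule, 66 groups of 5 samples were screened for a single sample far from the others, and 7 were found. For independent, normally distributed values about 1 in 20 groups would be found. The groups here share 15 samples and the genes were picked by their values, so that rate need not hold for them. At 15 pM, Nfu_g_1_015733 had 55.12 CPM in replicate 1, where the other samples had 18.68 to 22.48 CPM. Nfu_g_1_012769 had 146.2 CPM in 15 pM replicate 4, where the others had 74.95 to 78.83 CPM. In 15 pM replicate 5, Nfu_g_1_015310 had 412.3 CPM (others 288.6 to 322.6) and Nfu_g_1_015582 had 26.71 CPM (others 18.37 to 20.17). At 150 pM, Nfu_g_1_010338 had 9.427 CPM in replicate 2 (others 6.08 to 7.001), and Nfu_g_1_020691 had 14.32 CPM in replicate 3 (others 8.52 to 9.357). In DMSO, Nfu_g_1_015733 had 8.825 CPM in replicate 3 (others 12.75 to 14.16).

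The difference between the doses passed the edgeR quasi-likelihood test for 4 of the 93 genes, with all 5 samples at 150 pM below all 5 at 15 pM. Of all tested genes 0.898% were called lower, and 3.20% of the 16402 genes had the same non-overlap. The p-values take no account of how the 93 were chosen, so these calls are a description. All 4 calls were lost when only the 15 pM and 150 pM samples were fitted, and without certain single samples, as given above. As 150 pM minus 15 pM on the log2 scale, the difference was -1.06 for Nfu_g_1_020691, -0.93 for Nfu_g_1_016142, -0.90 for Nfu_g_1_019030 and -0.55 for Nfu_g_1_013517.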

How the results depend on the processing

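The 4 called differences between doses kept their sign in every alternative that was run, while differences near 0 changed sign for 7 uncalled named genes. Of all 93 genes, the difference between doses changed sign for 25 with limma-voom, 16 without 15 pM replicate 4 and 12 without 15 pM replicates 1 and 4. In each of the other alternatives it did so for 0 to 7. Against DMSO the choice of the genes fixes the direction. In parentheses after a count stands a percentage of all genes tested in the same fit. Against DMSO it is the percentage called raised, and between the doses the percentage called in either direction. The rule gave 93 genes, against 33 with library totals, 15 with the deposited RPKM, and 76 to 171 when each sample was left out. It gave 80 to 100 under DESeq2 size factors, upper-quartile factors, other abundance floors, no exclusion and TMM factors from the tested genes. Of the 93, 40 were called raised at 15 pM against DMSO, with 15 in a fit of those 2 groups (0.321%), 77 with DESeq2 (5.02%), 62 with limma-voom (5.36%) and 20 to 64 when each sample was left out. The count was 20 without DMSO replicate 2 (0.433%), 26 without DMSO replicate 5 (0.567%), 64 without 15 pM replicate 2 (2.63%) and 61 without 15 pM replicate 4 (2.80%). At 150 pM against DMSO, 4 were called, with 49 in a fit of those 2 groups (1.57%), 41 with DESeq2 (1.33%), 75 with limma-voom (6.18%), 36 without 15 pM replicates 1 and 4 (0.910%), and 1 to 40 when each sample was left out. The 40 came without 15 pM replicate 4 (0.959%), the 1 without 150 pM replicate 5 (0.00541%), and 2 without DMSO replicate 2 or 4 or 150 pM replicate 3 or 4 (0.0108% to 0.0325%). Between the doses 4 were called, with 0 in a fit of the 2 doses (edgeR, 0.248%, with 16 at an unadjusted p under 0.05), 10 with DESeq2 (9.28%), 13 with limma-voom (7.74%) and 0 to 5 when each sample was left out (0.189% to 3.37%). The cause of these changes was not tested. With the title numbers of DMSO and 15 pM samples as a replicate block, edgeR called 0 of the 93 raised at 15 pM (0.0113%), with 74 at an unadjusted p under 0.05. The share of all tested genes at an unadjusted p under 0.05 is not given for this fit or the fit of the 2 doses. Nothing is read from either unadjusted count. Same-numbered samples deviated from their group means with correlations of 0.33, -0.27, -0.16, 0.12 and -0.01 over 18253 genes. The labels do not say what the numbers mark, and these correlations cannot tell whether they pair the samples. The fit with the block is given as an alternative and is no measure of effect size. Counts were under 50 in a DMSO sample for 7 of the 93 genes, where counting error is largest.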
